A study of Mus musculus with 21 samples.

Results

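The 10 milk protein genes Csn1s1, Csn1s2a, Csn2, Csn3, Wap, Lalba, Glycam1, Ltf, Xdh and Btn1a1 were followed in bulk RNA sequencing of 21 mouse mammary tumors. They were chosen by gene symbol as the major caseins, whey proteins and milk fat globule proteins, and each symbol matched 1 of the 49652 genes in the count files. All 10 were among the 19315 genes with enough counts to be tested. The study asked what elevated RhoC, a small GTPase, changes in tumors driven by activated ErbB2/Neu. The 9 control tumors (N) came from FloxNeoNeuNT;MMTV-CreNLST mice, 7 of them with a Gata4(loxP/+) allele in addition and 2 without it. The 12 RhoC tumors (R) came from R26(RhoC/+);FloxNeoNeuNT;MMTV-CreNLST mice. Every tumor therefore carried NeuNT, an oncogenic Neu cDNA behind the endogenous ErbB2 promoter, switched on by a Cre that MMTV sequences drive in mammary epithelium, and the RhoC tumors added a Cre-dependent RhoC cDNA at Rosa26. The mice were virgin females, and ages were not in the labels.

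The tumors came from 17 mice, with R-18, whose label names no mouse, counted as a mouse of its own. RhoC tumors R-13 to R-16 were 4 tumors of mouse P497, and R-6 and R-7 were 2 tumors of mouse N9255, so tumors of 1 mouse are not independent. Total counts ranged from 47309780 to 100741339 per tumor. Rhoc itself had a median of 50.7 CPM, counts scaled to a common library size, in the control tumors (up to 172) and of 88.2 in the RhoC tumors (up to 148), a difference that did not pass the test (log2 fold change 0.19, adjusted p = 0.774). Luminal epithelial markers were present in all tumors, with a sum over 11 genes of 1559 to 6295 CPM.

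Caseins are the main proteins of milk. Csn1s1, Csn1s2a and Csn2 encode alpha and beta caseins, and Csn3 encodes kappa casein, which holds casein micelles in solution. Wap, Lalba, Ltf and Glycam1 encode secreted whey proteins, of which alpha-lactalbumin (Lalba) is the subunit that turns a galactosyltransferase into lactose synthase and lactoferrin (Ltf) binds iron. Xdh and Btn1a1 encode xanthine oxidoreductase and butyrophilin, which take part in enclosing milk fat in membrane. In the gland of pregnancy and lactation, prolactin acts through its receptor, JAK2 and STAT5 on alveolar luminal cells. There STAT5, with glucocorticoid receptor, NFI and ELF5, turns on many milk protein genes.

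The promoters are shown because the results turn on genes that were high in the same tumors. RefSeq sequences of 250 bases before to 50 after the start (GRCm38.p6) were at hand for 7 of the 10 genes. The 5 shown are Csn1s1 (chr5:87665958-87666257, plus strand), Csn2 (chr5:87699376-87699675, minus), Glycam1 (chr15:103565032-103565331, minus), Wap (chr11:6638600-6638899, minus) and Lalba (chr15:98482634-98482933, minus), each 5′ to 3′ on the gene's strand. Capitals mark matches, on either strand, to the STAT5-type palindrome TTCNNNGAA or to the NFI-type site TTGGC, whose reverse complement is GCCAA. No match of one motif overlapped one of the other.
Csn1s1: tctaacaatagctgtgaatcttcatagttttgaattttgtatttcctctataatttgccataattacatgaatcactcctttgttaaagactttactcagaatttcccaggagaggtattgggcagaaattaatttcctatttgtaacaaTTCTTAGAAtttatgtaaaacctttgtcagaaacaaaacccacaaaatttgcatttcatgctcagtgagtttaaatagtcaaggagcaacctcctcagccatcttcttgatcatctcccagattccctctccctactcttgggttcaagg
Csn2: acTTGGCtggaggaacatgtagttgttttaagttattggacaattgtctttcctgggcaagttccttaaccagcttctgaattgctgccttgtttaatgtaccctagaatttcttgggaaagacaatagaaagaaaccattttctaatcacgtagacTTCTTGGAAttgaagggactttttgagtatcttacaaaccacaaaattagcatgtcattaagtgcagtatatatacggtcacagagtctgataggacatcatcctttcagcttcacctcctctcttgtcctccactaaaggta
Glycam1: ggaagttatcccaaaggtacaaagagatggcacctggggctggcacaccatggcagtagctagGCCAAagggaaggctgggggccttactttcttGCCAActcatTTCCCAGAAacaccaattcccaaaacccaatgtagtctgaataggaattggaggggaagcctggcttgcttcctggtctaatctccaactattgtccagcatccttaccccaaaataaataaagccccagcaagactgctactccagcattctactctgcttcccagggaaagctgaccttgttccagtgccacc
Wap: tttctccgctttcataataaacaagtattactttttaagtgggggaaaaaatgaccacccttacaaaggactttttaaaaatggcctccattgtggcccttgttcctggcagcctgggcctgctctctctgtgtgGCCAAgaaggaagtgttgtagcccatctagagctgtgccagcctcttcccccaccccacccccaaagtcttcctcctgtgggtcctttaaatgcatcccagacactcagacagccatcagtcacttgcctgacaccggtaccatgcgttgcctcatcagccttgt
Lalba: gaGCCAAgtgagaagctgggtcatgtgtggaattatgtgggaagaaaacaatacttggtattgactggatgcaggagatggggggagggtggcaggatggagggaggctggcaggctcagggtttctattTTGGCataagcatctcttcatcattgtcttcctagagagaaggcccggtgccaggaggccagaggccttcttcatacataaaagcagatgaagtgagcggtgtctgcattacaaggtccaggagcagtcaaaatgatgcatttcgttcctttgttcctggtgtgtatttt

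The palindrome was found in 4 of the 7 promoters, beside 8.30% of all 32851 promoters of the same length. It read TTCTTAGAA in Csn1s1, beginning 100 bases before the start. In Csn2 it read TTCTTGGAA and began 93 bases before the RefSeq start, but after the start in GENCODE vM21, which lies 205 bases upstream of the RefSeq start. In Glycam1 it read TTCCCAGAA and began 145 bases before the start. The match in Csn1s2a lay after the RefSeq start, which is itself 117 bases upstream of the start in GENCODE vM21. The Wap, Lalba and Ltf windows held no palindrome. TTGGC was found in 4 of the 7 promoters (Csn2, Wap, Lalba and Glycam1), beside 46.7% of all promoters. These are matches of letters in a short window.

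Levels below are CPM scaled with TMM factors. The members varied over the tumors more than nearly all other genes: the SD of log2 CPM was 5.10 for Csn2, 4.85 for Csn1s2a, 4.41 for Csn1s1 and 4.23 for Glycam1, beside a median of 0.70 over all tested genes, and 9 of the 10 members lay above the 97th percentile. Xdh, with an SD of 1.04, lay at percentile 73.5. Together the 10 genes took from 0.0169% of all counts in R-10 to 8.88% in R-18, with a median of 0.524%. In bulk tumors, a smaller number of secretory cells and less RNA per secretory cell cannot be told apart.

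**Figure D1:**
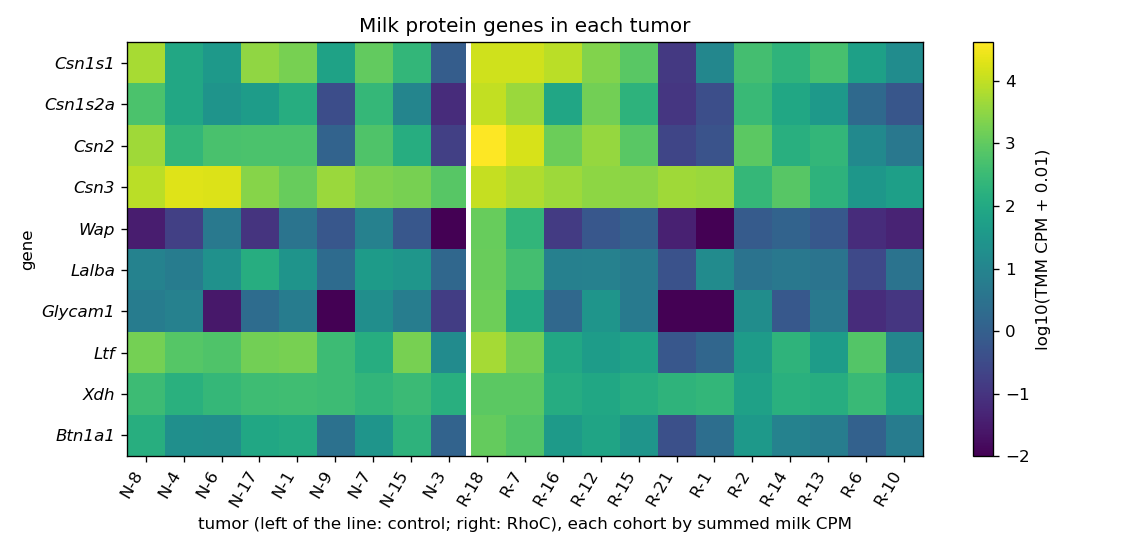
TMM CPM of each milk protein gene (rows) in each tumor (columns), as log10(CPM + 0.01); control tumors are left and RhoC tumors right of the white line, each ordered by summed milk CPM. R-18 and R-7 are the 2 brightest columns in 8 of the 10 rows, Csn3 is bright in most columns, and N-3, R-21 and R-1 are dark for the other caseins.

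Tumor R-18 carried the most milk gene RNA. The 10 genes summed to 87250 CPM in R-18, which was 32.2% of the sum over all 21 tumors. R-7 followed with 44790 CPM (16.5%), N-8 with 21770, N-4 with 21040 and N-6 with 20410 CPM. Of the summed level, 3 tumors (R-18, R-7 and N-8) held 56.7% and 7 tumors (these, N-4, N-6, R-16 and R-12) held 81.5%. At the other end, R-10 summed to 154 CPM and N-3 to 952 CPM. These tumors also had the 2 lowest luminal marker sums (1559 and 2240 CPM). Their skeletal muscle marker sums were 640 and 400 CPM, ranks 2 and 3. The part of cell content in their low milk gene sums was not tested. Tumors with high milk gene sums were thus found in both cohorts, and the cohort with the 2 highest also held the lowest.

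**Figure D2:**
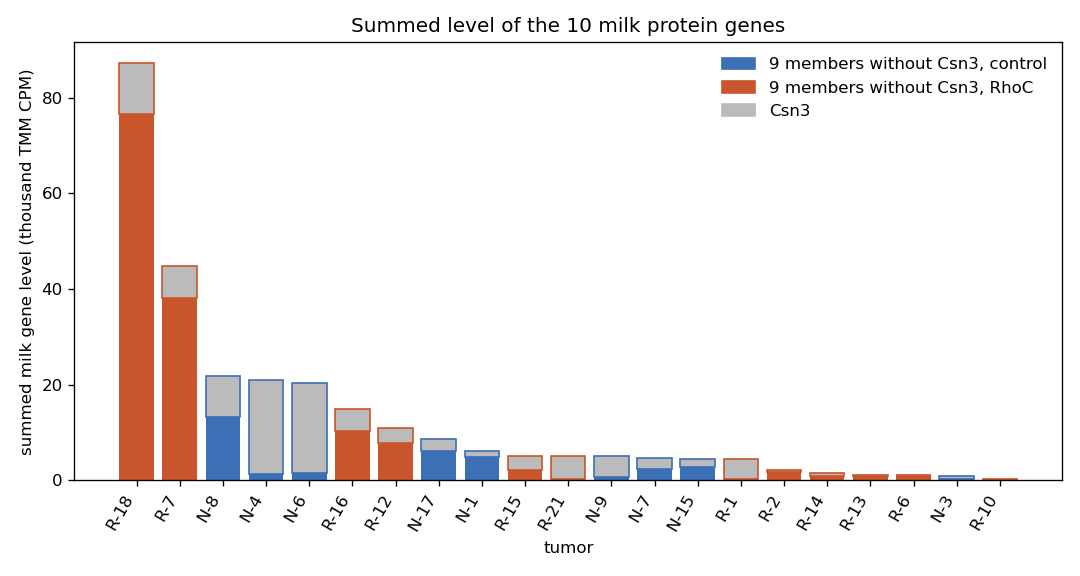
Summed TMM CPM of the 10 milk protein genes in each tumor, highest first; bars are stacked from the 9 members without Csn3 (blue for control, orange for RhoC) and Csn3 (grey). R-18 reaches 87250 CPM, and in N-4 and N-6 nearly all of the bar is Csn3.

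How few tumors held a gene's signal differed by gene. For Wap, R-18 alone held 83.1% of the summed CPM, and for Glycam1 it held 87.9%. Csn1s2a and Lalba reached 80% in 2 tumors, Csn2 in 3, Btn1a1 in 4, Csn1s1 in 5, Ltf in 6, Csn3 in 9 and Xdh in 12. The median of all tested genes was 14 tumors. Of the members, 5 of 10 reached 80% in 3 or fewer tumors, beside 1.52% of tested genes. R-18 was the highest tumor for 8 of the 10 genes, R-7 was the highest for Xdh and N-4 for Csn3. R-18 and R-7 were the 2 highest tumors for 8 of the 10 genes.

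**Figure D3:**
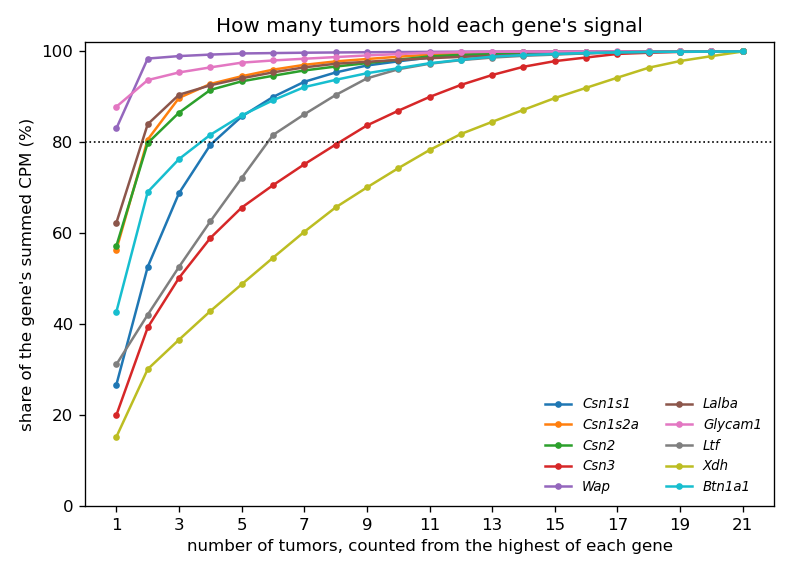
Share of each gene's summed CPM (y, percent) held by its highest tumors (x, number of tumors counted from the highest); the dotted line marks 80%. Wap and Glycam1 cross the line at 1 tumor and Xdh at 12.

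Among the caseins, Csn2 (chr5:87692624-87699630, GRCm38) ranged in the control tumors from 0.174 to 4826 CPM with a median of 523. In the RhoC tumors it ranged from 0.236 to 41300 with a median of 548. The cohort medians lay close together, 10 of 12 RhoC tumors lay between the lowest and the highest control tumor, and R-18 (41300) and R-7 (16310) were the 2 tumors above every control. The mean was 825 ± 1520 (SD, n = 9) in control and 5393 ± 12210 (SD, n = 12) in RhoC tumors, a log2 fold change of 2.71 ± 1.64 (SE) with an adjusted p of 0.352.

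Csn1s1 (chr5:87666227-87682578) ranged from 0.898 through a median of 235 to 5619 CPM in control tumors. In RhoC tumors it ranged from 0.118 through 462 to 14140. It was high in 3 RhoC tumors, R-18 at 14140, R-7 at 13710 and R-16 at 8585 CPM. Csn1s2a (chr5:87774567-87788797) ranged from 0.0579 through 44.5 to 542 in control and from 0.103 through 84.9 to 9973 in RhoC tumors. The log2 fold changes were 1.32 ± 1.37 (SE) for Csn1s1 and 3.49 ± 1.68 for Csn1s2a, with adjusted p-values of 0.597 and 0.244. For all 3 of these caseins the same 2 tumors, N-3 and R-21, were the lowest.

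Csn3 (chr5:87925579-87932665) did not follow the other caseins. It ranged from 782 through a median of 2600 to 19670 CPM in control tumors and from 31.7 through 3076 to 10720 in RhoC tumors, and 19 of the 21 tumors had over 100 CPM. The highest were N-4 (19670) and N-6 (18910), where Csn2 was at 235 and 523 CPM. In the 4 tumors with Csn2 under 2 CPM, Csn3 was still at 782 (N-3), 4137 (R-1), 4255 (N-9) and 4830 CPM (R-21). The cohorts overlapped, with 5 RhoC tumors below every control tumor (R-6, R-10, R-13, R-2 and R-14) and a log2 fold change of −1.06 ± 0.82 (adjusted p = 0.470). The RhoC median lay above the control median, and the negative fold change was smaller without 1 of the 2 highest control tumors, at −0.66 without N-4 and −0.67 without N-6. In length-scaled units (FPKM) Csn3 was the highest of the 10 genes in 12 tumors, Csn1s1 and Csn2 in 4 each and Ltf in 1. The FPKM ratio of Csn3 to Csn2 was 0.158 in R-18, 0.180 in R-2, 0.246 in R-7 and 12460 in R-21. In R-18, Csn2 made up 47.5% of the FPKM of the 10 genes, and in R-21 Csn3 made up 98.1%.

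**Figure D4:**
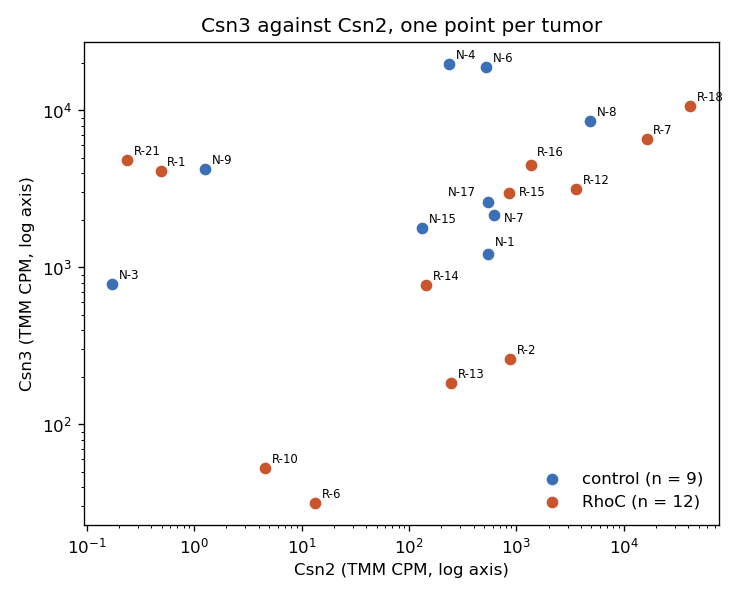
TMM CPM of Csn3 (y) against Csn2 (x), both axes log, 1 point per tumor (blue control, orange RhoC). N-3, N-9, R-1 and R-21 lie at the left with Csn2 under 2 CPM and Csn3 between 782 and 4830 CPM, and R-18 lies at the far right.

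The neighbours of the caseins on chromosome 5 were read for the same tumors. Csn1s2b, a further casein gene between Csn1s2a and Csn3, was at 260 CPM in R-18 and 169 in R-7, with a median of 0.508 over the tumors. Odam, next to it, was at 28.3 CPM in R-18 and 0.672 in R-7. The antisense gene 1700066N21Rik overlaps Csn3 and was at most at 0.680 CPM, in R-21. The strand setting of the counting was not given in the sources used here. The study discarded reads that fell on more than 1 gene, so whether reads in this overlap were dropped cannot be told.

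Among the whey proteins, Wap (chr11:6635482-6638637) was at 1193 CPM in R-18 and at 220 in R-7, and no other tumor exceeded 7.87. Its median was 0.623 CPM in control and 0.639 in RhoC tumors. Wap had no count in N-3 and R-1, where the level that 3 counts would give is 0.0434 and 0.0341 CPM, so R-18 was at least 27460-fold higher than N-3. This limit covers counting error only. The fitted log2 fold change of 5.91 ± 2.15 (adjusted p = 0.143) therefore stood on 2 of 12 RhoC tumors.

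Glycam1 (chr15:103562762-103565081) showed the same shape, with 1468 CPM in R-18, 97.8 in R-7 and at most 28.2 elsewhere. It had no count in N-9, R-1 and R-21. Its median was 6.08 CPM in control and 3.19 in RhoC tumors, while the fitted log2 fold change was 4.68 ± 1.87 (adjusted p = 0.174). Median and fitted fold change thus had opposite signs. Glycam1 is also a product of high endothelial venules in lymph nodes. The 8 markers of those venules and nodes summed to 3.10 CPM in R-18 and to 0.353 in R-7, beside 0.325 to 14.6 in control and 0.103 to 902 in RhoC tumors. Ccl21a had no count in any of the 21 tumors and Ccl19 none in 18 of them, so neither tells the tumors apart. The 902 CPM were those of R-2, of which Cr2, a complement receptor gene of B cells and follicular dendritic cells, made up 887, and Glycam1 was there at 17.4 CPM, rank 5 of the 21 tumors. The part of these cells in the Glycam1 of R-2 was not tested.

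Lalba (chr15:98480400-98482721) ranged from 1.59 through a median of 22.1 to 130 CPM in control tumors. In RhoC tumors it ranged from 0.281 through 4.70 to 1249. R-18 (1249) and R-7 (434) were the 2 RhoC tumors above the control median. The log2 fold change was 2.28 ± 1.35 (adjusted p = 0.341), whereas the difference of mean log2 CPM was −0.77 (exact permutation test over tumors, two-sided, p = 0.565).

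Ltf (chr9:111019271-111042767) ranged from 15.2 through a median of 765 to 1837 CPM in control tumors and from 0.606 through 54.8 to 5238 in RhoC tumors. R-18 (5238) and R-7 (1604) were the 2 RhoC tumors above the control median, and 8 of 9 control tumors lay above the RhoC median. The log2 fold change was −0.53 ± 1.11 (adjusted p = 0.811), and the mean log2 CPM differed by −2.98 (exact permutation test, two-sided, p = 0.0514, not adjusted for the 10 genes). That test treated the tumors of mouse P497, and those of mouse N9255, as independent, which they are not. Leaving out R-18 alone moved the fold change to −1.92 ± 1.02 (adjusted p = 0.282). Ltf is also stored in granules of neutrophils. The 10 neutrophil markers summed to 8.37 CPM in R-18, the lowest of the 21 tumors, to 29.4 in R-7, and to 16.8 to 354 CPM in control tumors, and Camp and Elane had no count in R-18, as in 7 and 8 of the 21 tumors in all. In R-6, where Ltf was the highest of the milk genes at 712 CPM, the neutrophil sum was the highest of all tumors at 772 CPM. S100a8 and S100a9, which keratinocytes also express, made up 522 of these, and the other 8 markers summed to 250.5 CPM in R-6, again the highest, while the granule genes Mpo, Camp, Elane, Ngp and Mmp8 were each highest in N-8. The part of these cells in the Ltf of R-6 was not tested.

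Of the fat globule genes, Xdh (chr17:73883895-73950196) was the most even. It ranged from 150 through a median of 332 to 377 CPM in control tumors and from 59.8 through 144 to 887 in RhoC tumors. All 9 control tumors lay above the RhoC median and 6 of 12 RhoC tumors lay below every control tumor, while R-7 (887) and R-18 (866) were the highest of all. Of these 6, R-13, R-15 and R-16 came from the same mouse, P497, and are not independent. The log2 fold change was −0.06 ± 0.45 (adjusted p = 0.953), and it was 0.27 ± 0.50 (adjusted p = 0.850) without the tumors of mouse P497. Xdh is expressed in many tissues outside lactation.

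Btn1a1 (chr13:23456992-23465901) ranged from 1.27 through a median of 28.2 to 186 CPM in control tumors and from 0.399 through 18.6 to 1101 in RhoC tumors. R-18 (1101) and R-7 (678) again stood above every control tumor. The log2 fold change was 1.34 ± 1.18 (adjusted p = 0.532), and the difference of mean log2 CPM had the other sign, at −0.63 (exact permutation test, two-sided, p = 0.643). Without R-18 the fold change was 0.30 ± 1.08 (adjusted p = 0.895) and without R-7 it was 0.86.

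Across the cohorts, none of the 10 genes passed an adjusted p of 0.05 in edgeR's quasi-likelihood test, beside 0.223% of all tested genes. At an unadjusted p under 0.05 there were 3 (Csn1s2a, Wap and Glycam1, all with positive fold changes), beside 20.5% of all tested genes, or 10.5% higher and 9.93% lower in RhoC tumors. DESeq2 also passed 0 of 10, beside 6.24% of all genes, with 3 at an unadjusted p under 0.05, beside 23.1%, after it had replaced the count of R-18 in 6 of the genes as an outlier, and in 5 of these also that of a control tumor (N-8 for Csn1s2a and Csn2, N-7 for Wap and Glycam1, N-17 for Lalba). limma voom with mouse as a random effect passed 0 of 10, beside 0.0155%, and had Ltf alone, lower in RhoC tumors, at an unadjusted p under 0.05, beside 5.98% of all genes in that direction. The log2 fold change in edgeR was positive in 7 of the 10 genes with a median of 1.81, beside a median of −0.01 over all tested genes. In the limma voom fit, which kept all 21 tumors, it was positive in 4 of 10 with a median of −0.34, and Wap was at 0.70 ± 2.03, Glycam1 at 0.47 ± 2.22 and Csn2 at 0.26 ± 2.31. Yet the RhoC median was below the control median in 5 of the 10 genes.

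For 5 of the 10 genes (Csn1s1, Csn2, Wap, Lalba and Btn1a1) the sign of the fold change turned without 2 tumors. Without R-18 the median over the 10 genes was 0.70, with 7 of 10 positive, and the log2 fold change was 3.38 ± 1.73 for Wap, 1.42 ± 1.36 for Glycam1, 1.37 ± 1.48 for Csn2 and 0.57 ± 1.13 for Lalba. Csn1s2a was at 2.29 and Csn1s1 at 0.83 in that fit. None passed in the fit without R-18, beside 0.417% of its genes, and none was at an unadjusted p under 0.05, beside 21.1%. Without R-7 alone Csn1s1 was at 0.86. Leaving out N-8 alone moved the caseins up, with Csn1s1 at 2.05, Csn2 at 4.055 and Csn1s2a at 4.295, while Csn3 stayed negative at −1.01. Without R-18 and R-7 the median was −1.29 and 2 of 10 were positive, Csn1s2a (0.92 ± 1.39) and Glycam1 (0.13 ± 1.28). Wap then changed from 5.91 to −2.05 ± 1.08, Lalba from 2.28 to −2.53 ± 0.76 and Btn1a1 from 1.34 to −1.66 ± 0.89, and Ltf went from −0.53 to −2.996 ± 0.989. Csn1s1 (−0.08 ± 1.33) and Csn2 (−0.22 ± 1.36) came to lie near 0. No member passed an adjusted p of 0.05 in this fit either, beside 0.413% of all genes tested in it, and 3 (Lalba, Ltf and Xdh, all with negative fold changes) were at an unadjusted p under 0.05, beside 20.5%. Since these tumors were left out for their high values, a lower RhoC level follows from the choice.

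**Figure D5:**
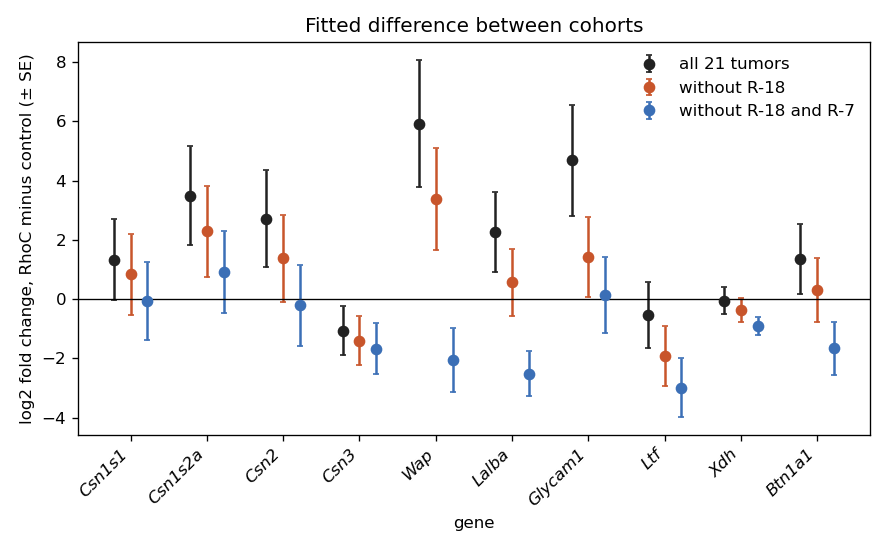
Fitted log2 fold change of RhoC minus control tumors (y, ± SE) for each gene in all 21 tumors (black), without R-18 (orange) and without R-18 and R-7 (blue). Wap goes from 5.91 to −2.05 and Lalba from 2.28 to −2.53, while Csn3 stays negative in all 3 fits.

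Tumors of 1 mouse could differ widely. In mouse N9255, Csn2 was at 13.5 CPM in R-6 and at 16310 in R-7, a ratio of 1210. Csn1s2a differed 2396-fold and Btn1a1 593-fold between these tumors, whereas Xdh differed 2.84-fold and Ltf 2.25-fold. In mouse P497 the 4 tumors spanned 196 to 8585 CPM for Csn1s1, with R-16 the highest, and 3.43 to 7.48 CPM for Lalba. In both mice the caseins thus spread more widely than Xdh did.

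Histology was given by the study and not by the labels, and it is described with no test. The 5 complex adenocarcinomas (N-4, R-7, R-10, R-12 and R-16) held both the second highest and the lowest sum, from 154 CPM in R-10 to 44790 in R-7. The 4 poorly differentiated adenocarcinomas, all controls, ranged from 952 CPM in N-3 to 21770 in N-8. The 3 solid nodular carcinomas were alike in their sums (4415 to 5003 CPM) but not in Csn2, which was at 0.488 in R-1, 1.26 in N-9 and 614 in N-7. The 3 squamous cell carcinomas, all RhoC tumors, were low, with sums of 1129 (R-6), 1142 (R-13) and 1577 CPM (R-14). R-2, for which the study lists a poorly differentiated adenocarcinoma and an adenomyoepithelioma, summed to 2044 CPM, and R-15, given as solid nodular or poorly differentiated, to 5068 CPM. The spindle cell tumor N-1 summed to 6027 CPM. No histology was at hand for R-18, N-17 or R-21, which had sums of 87250, 8662 and 5037 CPM.

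Over the 21 tumors the 45 pairs of members all had a positive Spearman correlation of log2 CPM, from 0.127 to 0.940. Of all pairs of tested genes, 49.5% were positive. Of the 36 pairs without Csn3, 30 had a Benjamini-Hochberg adjusted p under 0.05 in a permutation test with 100000 draws, each with rho of at least 0.472, a value reached by 5.64% of all pairs of tested genes, while none of the 9 pairs with Csn3 did (rho 0.129 to 0.434) and 1 did by Pearson's r. Without R-18 and R-7 the rho ranged from −0.177 to 0.919, 5 pairs were negative (3 of them Xdh with Glycam1, Csn1s2a or Csn2, and 2 of them Csn3 with Wap or Glycam1), and 18 of the 36 pairs without Csn3 still reached 0.472. The share of all pairs of tested genes was not computed without these 2 tumors. The closest pair was Csn1s2a and Csn2 (rho = 0.940, r = 0.975, both raw p = 1e-05 in the permutation test, the smallest it can give; adjusted p = 0.000112 and 4.5e-05), and r was 0.964 without N-3 and R-21, the tumors farthest from the median. Csn2 and Csn3 gave rho = 0.339 and r = 0.309 (permutation p = 0.131 and 0.172, adjusted 0.174 and 0.199), and r was 0.397 without N-3 and R-21. The relation of Wap with Xdh rested on R-18 and R-7, since r fell from 0.542 (permutation p = 0.0114, adjusted 0.0172; rho = 0.281, permutation p = 0.216, adjusted 0.255) to 0.0561 without them. Ltf and Xdh held together without the extreme tumors, with rho = 0.768 and r = 0.609 (permutation p = 0.0001 and 0.00312, adjusted 0.000409 and 0.00585), and r = 0.869 without R-21 and R-1. Tumors of 1 mouse entered as separate points, so these p-values are too small.

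The genes outside the list whose levels were most like the mean log2 CPM of the 4 caseins over the 21 tumors were Hephl1 (rho = 0.884), Pate6 (0.801), Pinc (0.783), Slitrk4 (0.778), Pcsk1 (0.767), Oxtr (0.767), Slc1a4 (0.755), Ntn1 (0.753), Lyrm7 (0.752) and Atp2b2 (0.752). Pinc is a noncoding RNA induced in pregnancy, Oxtr is the oxytocin receptor of milk ejection, and Atp2b2 is a calcium pump that moves calcium into milk. Pinc was at 106 CPM in R-7 and 29.2 in R-18, Atp2b2 at 32.3 in R-18, and Oxtr at 32.7 in R-7 and 15.1 in R-18. Pcsk1, a prohormone convertase gene, was low in both, at 0.706 CPM in R-18 and 0.907 in R-7, with a maximum of 33.2 in another tumor. Several of the 10 had no count in some tumors, and all points share the same libraries.

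Of 20 regulators of prolactin signaling and alveolar development, 0 passed the adjusted test and 6 were at an unadjusted p under 0.05 (5 with positive and 1 with negative fold changes), beside 20.5% of all tested genes. Elf5, a transcription factor of alveolar cells, was the highest of the 21 tumors in R-18 (399 CPM) and the next highest in R-7 (341), with 143 to 331 CPM in control and 5.22 to 399 in RhoC tumors (log2 fold change −0.80 ± 0.51, adjusted p = 0.380). Stat5a was at 191 CPM in R-18 and 230 in R-7, ranks 5 and 3 from the top, and its highest tumor was N-8 at 437 CPM (log2 fold change −0.67 ± 0.46, adjusted p = 0.412). The prolactin receptor gene Prlr was at 306 CPM in R-18 and 159 in R-7, with medians of 160 in control and 165 in RhoC tumors (log2 fold change 0.09 ± 0.50, adjusted p = 0.929). Elf5 thus took ranks 1 and 2 in the tumors with the highest milk gene sums, while Prlr took ranks 5 and 12. Among the other regulators, Gata3 took ranks 1 and 3 in R-18 and R-7, Id2 ranks 1 and 5, and Erbb4 ranks 2 and 1. Ccnd1 took ranks 12 and 19. The 20 genes summed to 5880 CPM in R-18 and 5360 in R-7, ranks 3 and 6, and were highest in N-4 (8768). In this list the smallest p-values belonged to Ccnd1 (log2 fold change 0.97, adjusted p = 0.0993), the cyclin D1 gene, and Tnfsf11 (2.38, adjusted p = 0.130), which encodes RANKL.

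Of 15 other secreted milk genes, 0 passed and 4 were at an unadjusted p under 0.05, beside the same 20.5% of all tested genes, led by Muc1 (log2 fold change −2.17, adjusted p = 0.0773), a mucin of the fat globule membrane, and Csn1s2b (5.86, adjusted p = 0.100). These 15 genes summed to 24720 CPM in R-18 and 37050 in R-7, ranks 9 and 4 of the 21 tumors, beside 48750 in N-6, the highest, and 1425 in R-6, the lowest. R-18, first in the 10 milk protein genes, was thus in the middle of this list by its sum. Trf (10710 CPM), Spp1 (4399), Lcn2 (3927) and Mfge8 (3372) were the largest parts of that sum. R-18 held ranks 5, 10, 7 and 8 in these genes. It was the highest tumor for Csn1s2b, Pigr and Folr1, and its ranks in the other genes went down to 11 (Cd59a). Of 28 genes of milk lipid and lactose synthesis, 0 passed and 9 (6 higher and 3 lower) were at an unadjusted p under 0.05, beside 20.5% of all tested genes, led by the UDP-galactose transporter Slc35a2 (0.66, adjusted p = 0.0714) and the desaturase Scd1 (−1.29, adjusted p = 0.156). These 28 genes summed to 9916 CPM in R-18 and 8930 in R-7, ranks 3 and 5 of the 21 tumors, and over all tumors their sums spanned 3829 to 14730 CPM.

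Markers of other cells gave the following values beside R-18 and R-7. Of 11 luminal markers 0 passed and none was at an unadjusted p under 0.05 (Krt19 −1.66, adjusted p = 0.447; Cldn7 −0.33, adjusted p = 0.536), and the sums were 3504 CPM in R-18 and 3700 in R-7. Of 6 hormone-sensing luminal genes 3, all higher in RhoC tumors, were at an unadjusted p under 0.05, beside 10.5% of all tested genes in that direction, and 0 passed (Foxa1 4.03, adjusted p = 0.126; Esr1 1.12, adjusted p = 0.143). R-14 was the highest tumor for Esr1, Pgr, Foxa1, Cited1 and Areg, and for the sum of the 6 (939.6 CPM). R-13 and R-15, of the same mouse P497, summed to 362.5 and 309.1 CPM, ranks 4 and 5. The sums were 121.3 CPM in R-18 and 132.4 in R-7, beside 30.7 to 786.5 in control tumors. The sums of the 11 luminal markers in both tumors lay within the range of the others, but single markers reached its ends. R-18 was the lowest tumor for Krt7 (37.7 CPM) and rank 20 for Cdh1 (506). R-7 was rank 20 for Krt19 (0.538 CPM) and the highest for Kit (835). Basal markers (0 of 9 passed; Krt14 3.05, adjusted p = 0.310; Krt5 2.88, adjusted p = 0.385) summed to 195 CPM in R-18 and 184 in R-7, beside control sums of 136 to 3059. Squamous markers (0 of 4 tested passed and 1, lower, was at an unadjusted p under 0.05; Krt10 −5.07, adjusted p = 0.0536; Ivl 3.005, adjusted p = 0.313) summed to 56.1 and 23.1 CPM. Single tumors carried several of these values. Of the control tumors, N-1 held most of the Krt10 (285 CPM, beside a control mean of 37.99), while the medians were 0.960 CPM in control and 1.03 in RhoC tumors. Krt19 was at 4079 CPM in N-7, with medians of 103 in control and 120 in RhoC tumors, and Ivl, with a positive fold change, was at 29.1 CPM in R-6 with medians of 0.0869 in control and 0.00864 in RhoC tumors. The medians of these 3 genes thus ran against their fold changes. Adipocyte markers (0 of 3 tested passed and 2, both lower, were at an unadjusted p under 0.05; Pparg −1.51, adjusted p = 0.207; Cfd −3.72, adjusted p = 0.220) summed to 19.6 CPM in R-18 and 4.47 in R-7, beside control sums of 1.68 to 676. Cfd was at 285 CPM in N-17, with medians of 0.183 in control and 0.176 in RhoC tumors, and Pparg was highest there too, at 26.9 CPM. The median adipocyte sum was 5.08 CPM in control and 6.81 in RhoC tumors. The basal sums were thus low in both tumors (ranks 17 and 18 of 21), although R-18 was the highest tumor for Mylk (111 CPM) and R-7 for Oxtr (32.7 CPM), and R-18 held rank 7 in adipocyte markers.

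In the remaining marker lists 0 genes passed as well. They were neutrophils (8 tested, 3 lower at an unadjusted p under 0.05; Mpo −3.74, adjusted p = 0.127; Ngp −2.66, adjusted p = 0.216), venules and lymph nodes (1 tested and lower at that p; Cxcl13 −3.01, adjusted p = 0.0897), B and plasma cells (3 tested, 2 lower at that p; Jchain −2.76, adjusted p = 0.104; Mzb1 −1.89, adjusted p = 0.130) and skeletal muscle (3 tested, 0 at that p; Actn3 −3.10, adjusted p = 0.270; Mylpf −1.89, adjusted p = 0.451). Here too single control tumors held most of a gene's control level, N-17 with Actn3 at 264 CPM and Mylpf at 171, and N-8 with Mpo at 32.8 and Ngp at 72.6. The Actn3 median was 0.149 CPM in control and 0.215 in RhoC tumors. B and plasma cell markers summed to 3.37 CPM in R-18 and 0.588 in R-7, and muscle markers to 1.06 and 0.722 CPM. Of all tested genes, 9.93% were lower at an unadjusted p under 0.05. The part of any of these cells in the milk gene levels was not tested.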

How the data were processed

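RNA of 21 mammary tumors had been sequenced from ribosomal RNA-depleted stranded total RNA libraries. According to the labels and the study's methods, the authors trimmed reads (Trim Galore 0.5.0), aligned them to GRCm38.p6 (STAR 2.6.0c) and counted uniquely mapping reads per gene (HTSeq 0.6.1p2). The deposited counts are raw whole numbers per gene. The FPKM values deposited by the authors are scaled to gene length and were used to compare levels between genes. The deposited tables also hold the authors' fold changes and p-values, which were not used.

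Counts were filtered (filterByExpr by cohort), scaled by TMM and tested with edgeR 4.0.16 (glmQLFit, glmQLFTest) in R 4.3.3 for RhoC against pooled controls without covariates, with Benjamini-Hochberg adjustment over all 19315 genes. The SE is the log2 fold change divided by the root of F. Log2 CPM used a prior count of 2. DESeq2 1.42.0, limma 3.58.1, other scalings, sums per mouse and leaving out tumors were alternatives. The members and lists were chosen with earlier results of these data known. Besides the members, the text names in each list the 2 genes with the smallest p, Prlr, Stat5a and Elf5, and the 10 genes most correlated with the casein mean. Neighbours of the caseins were chosen after their values were seen. So were single genes of the lists named for share of a sum, rank or lack of counts, such as Mylk, Cr2 and Gata3. Each tumor was 1 sample, so the p-values measure the spread between tumors. Tumors of 1 mouse were treated as independent except in the sums per mouse and in limma voom. The test was also run on simulated counts, the outcome of which is not given here.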

Additional observations from a re-analysis of the deposited data

How the results depend on the processing

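No milk gene passed an adjusted p of 0.05 under any of the alternatives run, whereas the count of all genes called, 43 in the reported fit, moved widely. It was 1206 with DESeq2, 27 with library size alone, 3 with counts summed per mouse, 3 with limma voom and mouse as a random effect, 438 with Gata4(loxP/+) controls alone, 3 without mouse P497, 26 without the 3 squamous cell carcinomas and 79 without R-18 and R-7 (added after seeing the data). Leaving out 1 tumor at a time gave 14 (without N-9) to 346 (without N-15). No paired analysis was possible because each cohort has its own serial numbers, and tumors with the same number, such as N-1 and R-1, came from different mice.

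Of 320 alternative values of the members' fold changes, 300 kept their sign and 20 did not. limma voom gave −0.12 for Csn1s1, −0.67 for Lalba and −0.68 for Btn1a1, and mean log2 CPM gave −0.77 for Lalba and −0.63 for Btn1a1. Xdh was 0.0421 with Gata4(loxP/+) controls alone, 0.27 without mouse P497 and 0.0635 without squamous carcinomas, and −0.39 to 0.0407 with 1 tumor left out. Without R-18 and R-7, Csn1s1 was −0.0752, Csn2 −0.22, Wap −2.05, Lalba −2.53 and Btn1a1 −1.66. The causes were not tested. The 7 tumors that held 80% of the summed CPM became 8 with library size alone, 6 by FPKM, 5 without Csn3, 3 for a 50% share, and 8 without R-18 or 9 without R-18 and R-7. In low tumors Wap and Glycam1 rested on few or no counts.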
